A study of Drosophila melanogaster with 4 samples.

Results

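The gut serine proteases of Drosophila melanogaster described here are 31 of the fly's genes: 16 Jonah genes, 11 trypsin genes whose symbols end in Try, and 4 Ser genes. They were chosen by symbol alone, as every gene named Jon followed by a digit, named with the ending Try, or named Ser followed only by digits. Of 12073 gene IDs listed in at least 1 library's table, 29 belong to this set, and gammaTry and Ser8 had no row in any table. RNA came from whole adult females aged 1 to 3 days and kept at 25 °C, sequenced in 4 groups of 1 library each. The wild type stock is w1118. The mutant is labelled w1118 with kdm5 K6801/10424, so w1118 is common to every group and 1 allele combination stands for the mutant. Control flies of each genotype were held for 6 hours on 5% sucrose, and paraquat flies for 6 hours on 20 mM paraquat in 5% sucrose. Paraquat is a herbicide that generates superoxide in cells, and Kdm5 is a histone demethylase that removes methyl groups from lysine 4 of histone H3. RNA was extracted from flies in groups of 5, and the labels do not say how many such groups a library holds. Values of all 4 libraries stand in one fixed order below, called library order: wild type on sucrose, wild type on paraquat, mutant on sucrose, mutant on paraquat.

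Digestive serine proteases of this fold are made as inactive precursors, secreted into the gut lumen and cut to become active. Trypsins cut proteins after basic residues, and the Jonah enzymes are a related family of endopeptidases expressed mainly in the midgut. Both families sit largely in tandem clusters, and their transcripts are abundant in the absorptive cells of the midgut, the enterocytes. In whole flies, fewer enterocytes and less of a transcript per enterocyte cannot be told apart.

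Libraries held between 27.9 and 29.1 M (mega) uniquely mapped reads. Levels are the deposited RPKM, reads scaled to gene length in kilobases and to the library's total. Differences are of log2(RPKM + 1). A call of higher or lower needed a difference of at least 1 in size, and only genes with an RPKM of at least 1 in either library compared were tested. This size rule is not a test: with 1 library a group there is no replicate, no p-value is given, and the 95% intervals after folds cover counting error only. The targeted gene Kdm5 was at 43.4 RPKM in wild type control and 22.5 in wild type paraquat flies, against 2.06 and 2.03 in the mutant libraries. All genes with an RPKM of at least 1 had a median difference of −0.29 for paraquat in wild type and −0.05 in the mutant, and of −0.19 for the mutant against wild type in control and 0.08 in paraquat.

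The set took 0.405% of all reads in wild type control flies (0.403 to 0.407, exact 95% interval) and 0.567% in wild type on paraquat (0.564 to 0.570). In the mutant it took 0.473% in control (0.470 to 0.475) and 0.391% on paraquat (0.388 to 0.393). The share was thus 1.40-fold larger with paraquat in wild type (1.39 to 1.41) and 1.21-fold smaller with paraquat in the mutant (1.201 to 1.22). Jonah transcripts made up 62.6% to 67.7% of the reads of the set, trypsins 31.9% to 37.0%, and the Ser genes 0.366% to 1.01%. For the trypsins the share of the library was 1.62-fold larger with paraquat in wild type (1.60 to 1.64) and for the Jonah genes 1.29-fold larger (1.28 to 1.31). In the mutant both were smaller with paraquat, the trypsins 1.17-fold (1.15 to 1.19) and the Jonah genes 1.23-fold (1.22 to 1.25).

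A few genes carried most of this signal. The 6 members with the most reads, alphaTry, Jon65Aiv, Jon65Aiii, betaTry, Jon25Biii and Jon74E in every library, held 74.0%, 75.5%, 75.6% and 78.8% of the set's reads in library order. In all 4 libraries 9 members stood at 100 RPKM or more. At the other end, Jon66Cii never reached 1 RPKM: it had 2, 7, 0 and 6 reads in library order.

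The trypsin alphaTry (FBgn0003863) was at 733, 1070, 1008 and 871 RPKM in library order. Its neighbour betaTry was at 527, 1002, 562 and 443 RPKM in the same order. Wild type paraquat flies were thus highest for both. Among the Jonah genes, Jon65Aiv was at 762, 841, 568 and 461 RPKM, Jon65Aiii at 583, 722, 521 and 497, and Jon25Biii at 401, 486, 748 and 647. Both Jon65A genes were higher in each wild type library than in either mutant library, while Jon25Biii showed the opposite order. Jon74E was at 142, 290, 264 and 231 RPKM, and the wild type control was the low one. By RPKM, alphaTry ranked between 24 and 49 among all gene IDs in the 4 libraries. The deposited lengths include introns, which lowers the RPKM of genes that have them, and 25 of the 31 members have none in the BDGP6 annotation. For Jon74E the deposited length of 2260 bases exceeds the annotated span of 1051. Reads covered 1079, 1199, 1456 and 1125 bases of it in library order, more than that span in every library, so reads from outside the annotated gene are counted. Its covered share, mutant minus wild type, differed by 16.7 points in control flies and by −3.27 points under paraquat. The part of coverage in its level and folds was not tested.

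Below these 6 genes, epsilonTry was at 143, 260, 130 and 126 RPKM in library order, with wild type paraquat flies above the other libraries. Jon99Cii was at 277, 222, 179 and 139 RPKM and Jon99Ciii at 214, 189, 196 and 140, both highest in wild type control and lowest in mutant paraquat flies. Of the trypsins at lower level, thetaTry was at 50.7, 57.8, 66.6 and 48.4 RPKM, kappaTry at 19.3, 33.7, 35.5 and 31.2, and lambdaTry at 24.8, 32.0, 17.7 and 22.0. The genes iotaTry, at 11.1, 13.1, 17.8 and 24.8 RPKM, and etaTry, at 10.5, 13.8, 14.1 and 15.9, were lowest in wild type control and highest in mutant paraquat flies. Ser6 was at 9.02, 14.4, 7.80 and 8.13 RPKM and Ser7 at 3.74, 4.25, 9.46 and 6.12, so the genotypes stood in opposite order for these Ser genes. Over the 28 members that reached 1 RPKM, the highest library was wild type paraquat for 11, mutant control for 9, wild type control for 5 and mutant paraquat for 3.

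**Figure D1:**
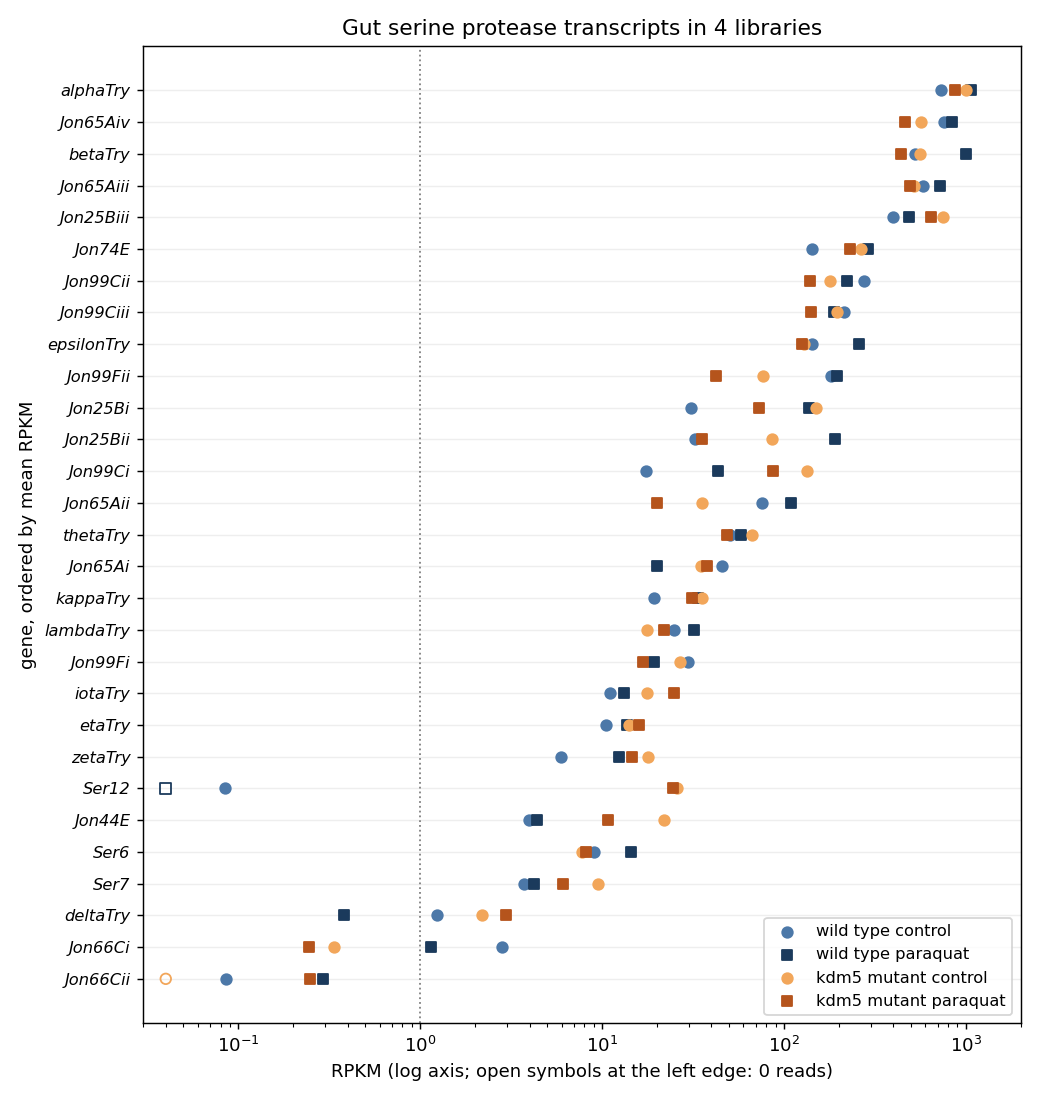
RPKM (horizontal log axis) of the 29 members with reads, ordered by mean level, in the 4 libraries (circles control, squares paraquat; blue wild type, orange kdm5 mutant; 1 library each, so no error bars; the dotted line marks 1 RPKM). Levels run from under 1 RPKM for Jon66Cii to 1070 for alphaTry, and Ser12 is split by genotype, with 0 reads in wild type paraquat drawn as an open symbol.

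Paraquat in wild type flies, a source of oxidative stress, left most members short of the size rule. Of 27 tested members 4 were called higher, 1 lower and 22 neither, against 5.21% higher and 10.4% lower over all genes. Differences lay above 0 for 21 of the 27, which is 77.8%, against 36.8% of all genes. The median difference of the members was 0.31, on the other side of 0 from the median of all genes. By family, 4 of 15 Jonah genes were called higher and 1 lower (median 0.14), 0 of 10 trypsins were called although 9 lay above 0 (median 0.45), and neither Ser gene was called.

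Within that comparison the tandem genes Jon25Bii and Jon25Bi moved furthest. Jon25Bii went from 32.5 to 191 RPKM (5.88-fold, 5.46 to 6.35) and Jon25Bi from 30.7 to 137 RPKM (4.45-fold, 4.11 to 4.83). The third gene of the cluster, Jon25Biii, was at 401 and 486 RPKM, a difference of 0.28. Jon99Ci was called higher at 17.4 and 43.3 RPKM (2.49-fold, 2.23 to 2.77), whereas Jon99Cii and Jon99Ciii, in the same cluster, were at 277 and 222 and at 214 and 189. Jon74E was 2.03-fold higher (1.98 to 2.08), with a difference of 1.02 that lies at the edge of the rule. Jon65Ai was the 1 member called lower, at 45.6 and 20.0 RPKM (2.28-fold lower, 2.04 to 2.53). Trypsins short of the rule included zetaTry at 5.97 and 12.5 RPKM, betaTry at 527 and 1002 and epsilonTry at 143 and 260, with differences of 0.95, 0.92 and 0.85. Their count depends on scaling: with median-ratio scaling these 3 passed the rule and Jon65Ai no longer did. So scaled, 7 members were called higher and 0 lower, against 645 and 457 of all genes.

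In the kdm5 mutant, too, most members stayed short of the rule with paraquat. Of 27 tested members 0 were called higher and 2 lower, against 0.712% and 0.603% of all genes (1.32% in either direction). Differences lay below 0 for 21 of the 27, which is 77.8%, against 62.6% of all genes. The members had a median difference of −0.28. The 2 called lower were Jon25Bii, at 85.9 and 35.4 RPKM in mutant control and mutant paraquat flies (2.43-fold lower, 2.25 to 2.63), and Jon25Bi, at 151 and 72.8 RPKM (2.07-fold lower, 1.96 to 2.19). Next in size stood Jon44E, at 21.9 and 10.8 RPKM, with a difference of −0.96, then Jon99Fii at −0.84 and Jon65Aii at −0.80. Of the 14 tested Jonah genes 13 lay below 0 (median −0.55). Trypsins were split, 4 above and 6 below (median −0.11), and iotaTry had the highest difference, 0.46, at 17.8 and 24.8 RPKM. With upper-quartile scaling Jon25Bi fell just short of the rule, with −0.98.

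Set side by side, the 2 responses share no library. Of the 28 members with at least 1 RPKM in some library, 17 had a positive difference in wild type and a negative one in the mutant, 2 the reverse, 4 were above 0 in both and 5 below 0 in both. Over all genes 21.6% had a positive difference in wild type and a negative one in the mutant. The mutant response minus the wild type response had a median of −0.60 over members and 0.25 over all genes. It was at or below −1 for 8 of 28 members, against 6.18% of all genes, and at or above 1 for 2, against 8.36%. The lowest values were those of Jon25Bii (−3.78), Jon25Bi (−3.16) and Jon99Ci (−1.88), followed by Jon65Aii, betaTry, zetaTry, Jon74E and Jon44E between −1.33 and −1.07. At the upper end stood Jon65Ai (1.25) and deltaTry (1.01). Only 7 of 8611 genes, 0.0813%, passed the rule upward in wild type and downward in the mutant, and Jon25Bii and Jon25Bi are 2 of these 7. No replicate tests this difference of responses.

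**Figure D2:**
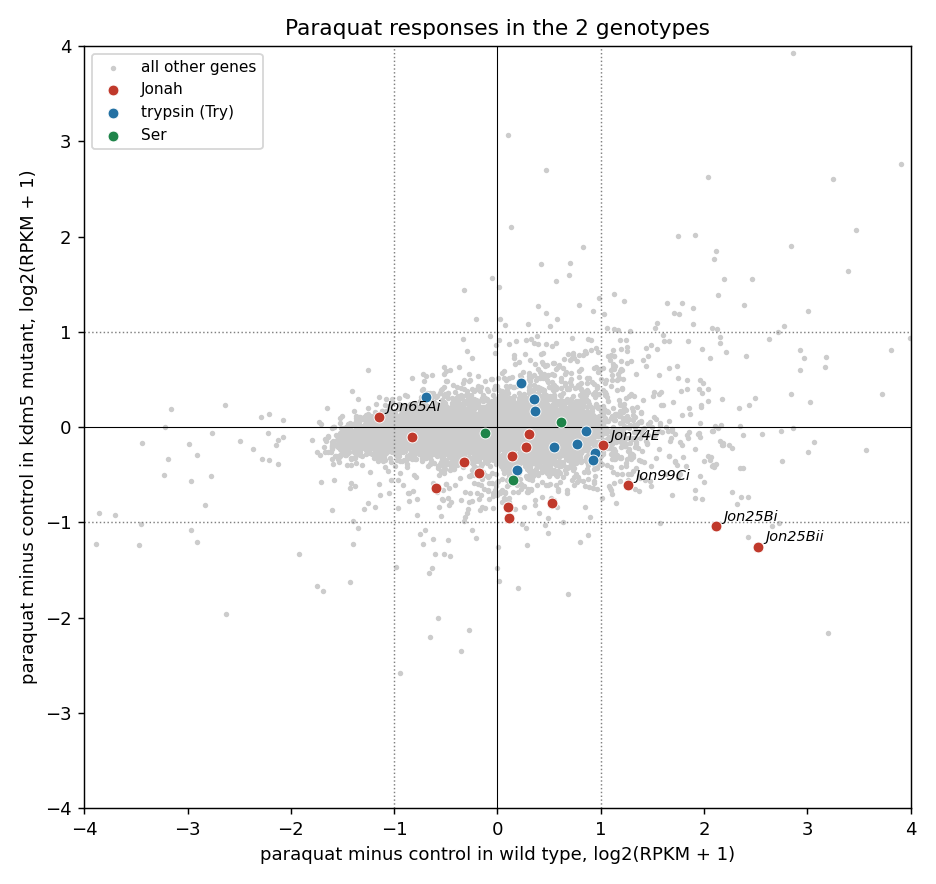
Paraquat minus control on the log2(RPKM + 1) scale in wild type (horizontal) and in the kdm5 mutant (vertical); coloured points are members by family, grey points all other genes with at least 1 RPKM in some library, and dotted lines mark the size rule. Jon25Bii and Jon25Bi lie in the lower right corner, past the rule in opposite directions; 9 genes fall outside the axes.

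With 1 allele combination, effects of the kdm5 alleles and of other differences between the stocks cannot be told apart. The genotypes were first compared in control flies, without stress. Here 7 of 28 members were called higher in the mutant and 3 lower, against 6.55% and 5.75% of all genes, and the median difference was 0.39. Of the Jonah genes 4 were higher and 3 lower, of the trypsins 1 was higher, and of 3 Ser genes 2 were higher. Under paraquat 4 of 28 were called higher and 5 lower, against 2.30% and 2.70% of all genes, with a median of −0.31. The members called in the same direction in both conditions were Ser12, Jon44E and Jon99Ci on the higher side and Jon65Aii and Jon99Fii on the lower side. Over all genes 1.57% were higher and 1.01% lower in both. With a pseudocount of 5 in place of 1, Jon44E (0.75), Jon99Ci (0.94) and deltaTry (0.57) fell short of the rule under paraquat, which left Ser12 as the 1 member higher there. In control flies Jon65Aii (−0.999) and Jon66Ci (−0.55) then fell short too, which left Jon99Fii as the 1 member lower.

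Ser12 was the member with the largest genotype difference. This gene lies on chromosome 2L at 2250431 to 2251275 (BDGP6 annotation, minus strand, no intron and no overlapping gene). It had 2, 0, 616 and 606 reads in library order. In RPKM these are 0.0847, 0, 25.8 and 24.7, so both mutant libraries were high and both wild type libraries at or under the floor of 3 reads. The mutant level was 304-fold higher in control flies (83.8 to 2516, the width set by the 2 wild type reads) and at least 201-fold higher in paraquat flies, taking 3 reads as the floor of the wild type library. Reads covered 96.45% and 96.7% of its length in the mutant without and with paraquat. Of 12073 gene IDs 2 had at most 3 reads in both wild type libraries and at least 100 in both mutant libraries, which is 0.0166%, and 3 showed the reverse, 0.0248%. Kdm5 itself lies 3.74 Mb away on the same arm.

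On the Jonah side, Jon99Ci was at 17.4, 43.3, 135 and 87.7 RPKM in library order. Both mutant libraries lay above both wild type ones. The mutant level was 7.73-fold higher in control flies (7.02 to 8.53) and 2.03-fold higher with paraquat (1.89 to 2.17), the latter at the edge of the rule and short of it with median-ratio scaling (0.97). Its cluster spans 3974 bases on chromosome 3R (29922216 to 29926189, BDGP6), and the other two genes there, Jon99Cii and Jon99Ciii, differed between genotypes by −0.62 and −0.13 in control and −0.67 and −0.43 in paraquat. Jon44E was at 3.98, 4.38, 21.9 and 10.8 RPKM, again with both mutant libraries above both wild type ones. It was 5.52-fold higher in mutant control flies (4.45 to 6.90) and 2.47-fold higher in mutant paraquat flies (1.98 to 3.10). In the annotation CG8586 overlaps the span of Jon44E, which is 1397 bases against a deposited length of 900. Whether reads of CG8586 were counted for Jon44E was not tested.

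Lower in the mutant were Jon99Fii and Jon65Aii. Jon99Fii was at 182, 196, 76.5 and 42.3 RPKM in library order, which is 2.38-fold lower in the mutant in control (2.25 to 2.51) and 4.62-fold lower with paraquat (4.33 to 4.94). Its neighbour Jon99Fi was at 29.7, 19.3, 26.8 and 16.9 RPKM and was not called. Jon65Aii was at 75.9, 110, 35.5 and 20.0 RPKM in the same order, 2.14-fold lower in control (1.97 to 2.32) and 5.51-fold lower with paraquat (5.01 to 6.06). For both genes the wild type libraries lay above the mutant ones. The share of all genes that separate by genotype in this way, as Jon99Ci and Jon44E did in reverse, was not counted. The control difference of Jon65Aii, −1.08, is near the rule and became −0.97 with median-ratio scaling. Jon66Ci was at 2.82, 1.16, 0.337 and 0.246 RPKM, from 66, 28, 8 and 6 reads, and was called lower in mutant control flies (8.36-fold, 4.003 to 20.2).

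Other calls between genotypes differed from 1 condition to the other. In control flies zetaTry (5.97 RPKM in wild type, 17.8 in the mutant) was 2.99-fold higher in the mutant (2.49 to 3.60) and Ser7 (3.74 and 9.46) 2.53-fold (2.14 to 3.00), and under paraquat they differed by 0.21 and 0.44. The pair Jon25Bi and Jon25Bii was higher in mutant control flies, 4.91-fold (4.54 to 5.32) and 2.65-fold (2.44 to 2.87). With paraquat Jon25Bii was 5.40-fold lower in the mutant (5.03 to 5.81), and Jon25Bi differed by −0.90. Under paraquat betaTry was 2.26-fold lower in the mutant (2.21 to 2.31) and epsilonTry 2.06-fold lower (1.97 to 2.15), against differences of 0.09 and −0.14 in control flies. deltaTry was called higher with 9 and 70 reads in wild type paraquat and mutant paraquat flies (7.73-fold, 3.85 to 17.6). The remaining 13 members of the 28 passed the rule in none of the 4 comparisons, among them alphaTry, Jon65Aiv, Jon65Aiii and Jon25Biii.

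**Figure D3:**
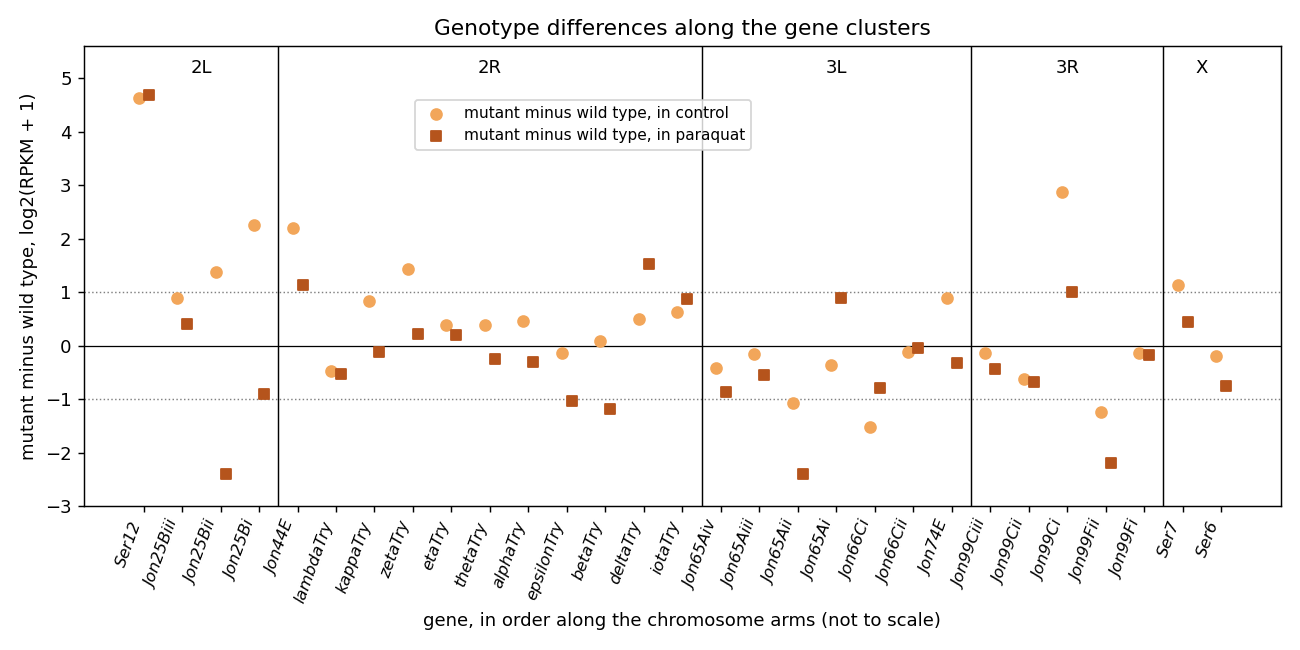
Mutant minus wild type on the log2(RPKM + 1) scale for the 29 members with reads in control (circles) and paraquat flies (squares), in their order along the chromosome arms; 1 library a group, dotted lines mark the size rule. Ser12 stands at 4.62 and 4.68, and neighbours within 1 cluster, such as Jon99Ci and Jon99Cii, lie on opposite sides of 0.

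Neighbours within a cluster differed by unlike amounts. With genes at most 30 kb apart counted as 1 cluster, 25 members lie in 6 clusters of 2 or more and 6 lie alone. All 11 trypsins sit in 1 cluster of 20698 bases on chromosome 2R. The 3 genes of the Jon25B cluster, within 5204 bases on chromosome 2L (4949941 to 4955144, BDGP6), differed with paraquat in wild type by 0.28, 2.52 and 2.12. The 4 Jon65A genes, within 15289 bases on chromosome 3L, ranged from −1.15 to 0.53 in that comparison and from −2.40 to 0.89 between the genotypes under paraquat. Of protein-coding genes that the symbol rule did not take, 3 lie inside the trypsin cluster. The 2 of them with reads, CG30025 and CG13202, stayed under 1 RPKM in every library, with only uniquely mapped reads counted. The part of sequence shared with members in these low counts was not tested.

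**Figure D4:**
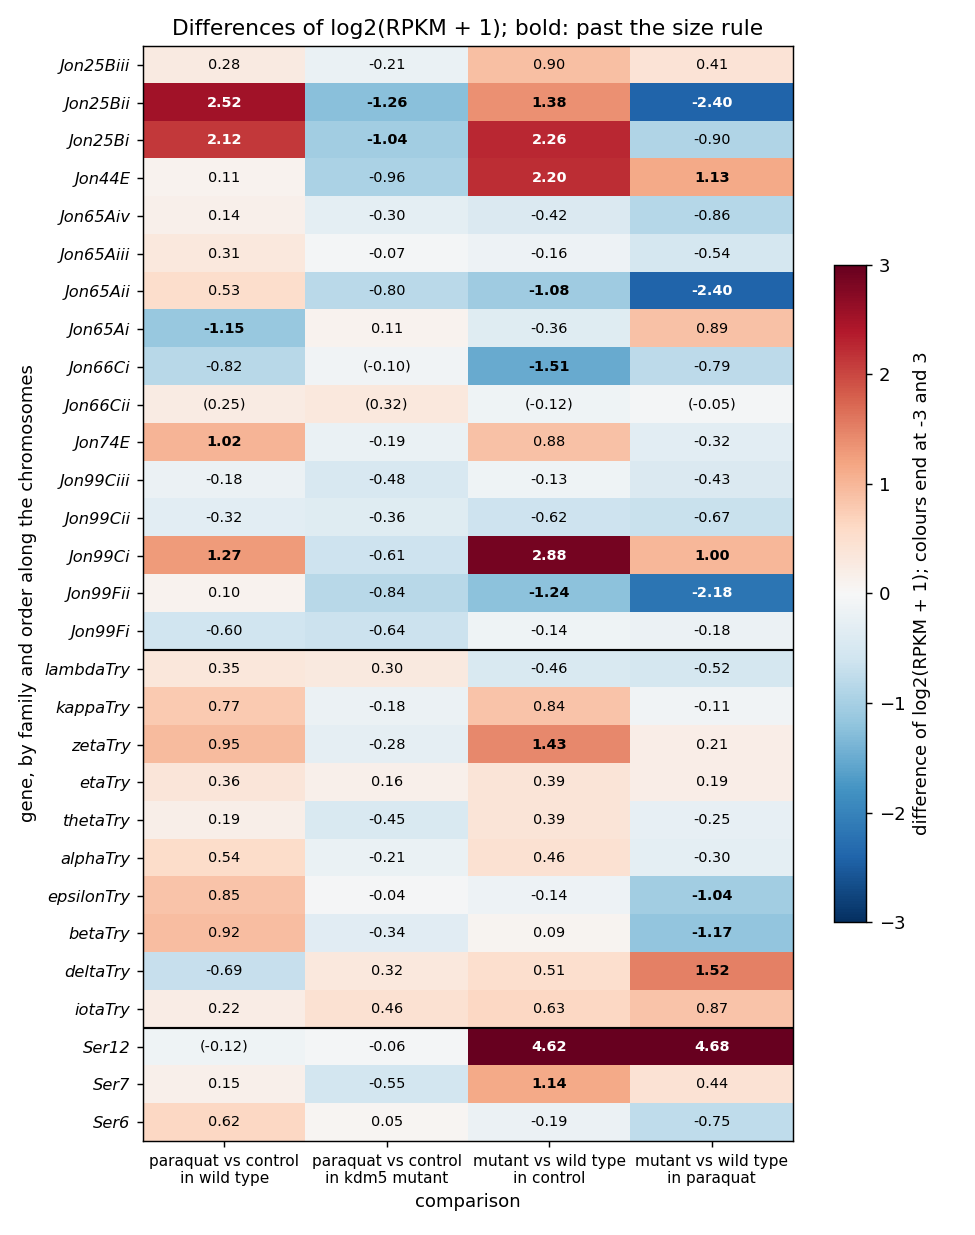
Differences of log2(RPKM + 1) for the 29 members with reads (rows, by family and chromosomal order) in the 4 comparisons (columns), with bold values past the size rule and values in brackets from genes under 1 RPKM in both libraries. Red (higher) prevails in the column for paraquat in wild type and blue (lower) in that for paraquat in the mutant.

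The share of gene length covered by reads, which the deposited tables also give, marks members whose values are uncertain. Jon99Cii was covered over 30.3%, 30.05%, 30.4% and 30.2% of its length and Jon99Ciii over 28.55%, 31.7%, 28.8% and 29.15%, although each had at least 3413 reads in every library. deltaTry was covered over 6.91% to 9.51%. Only uniquely mapped reads were counted, and Jon99Cii with Jon99Ciii, and deltaTry with gammaTry, are near-identical copies in the fly genome, so the levels given above for Jon99Cii, Jon99Ciii and deltaTry, and their place among the other members, are uncertain. The part of shared sequence in these values was not tested, and no sequences were compared here. The same holds for Jon99Fii, covered over 80.4% to 81.9% of its length, Jon99Fi, over 80.8% to 81.5%, and alphaTry, over 84.65% to 85.35%.

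The members Jon25Bi and Ser6 were covered differently in the genotypes. Jon25Bi was covered over 75.9% and 70.9% of its length in the wild type libraries, and over 99.2% and 97.8% in the mutant ones. Wild type paraquat and mutant control flies had similar numbers of Jon25Bi reads, 3423 and 3695, with covered shares of 70.9% and 99.2%. Ser6 showed the opposite order, with 93.2% and 87.7% in wild type and 73.0% and 70.5% in the mutant, from 227, 374, 199 and 213 reads. Of 7456 genes with at least 150 reads in every library, 0.228% were covered by at least 15 points more in the mutant in both conditions and 0.0671% by at least 15 points less. Of the 24 members among them, Jon25Bi is the 1 on the first side and Ser6 the 1 on the other. The part of coverage in the genotype differences of both genes was not tested. These coverage comparisons were chosen after the values were seen.

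**Figure D5:**
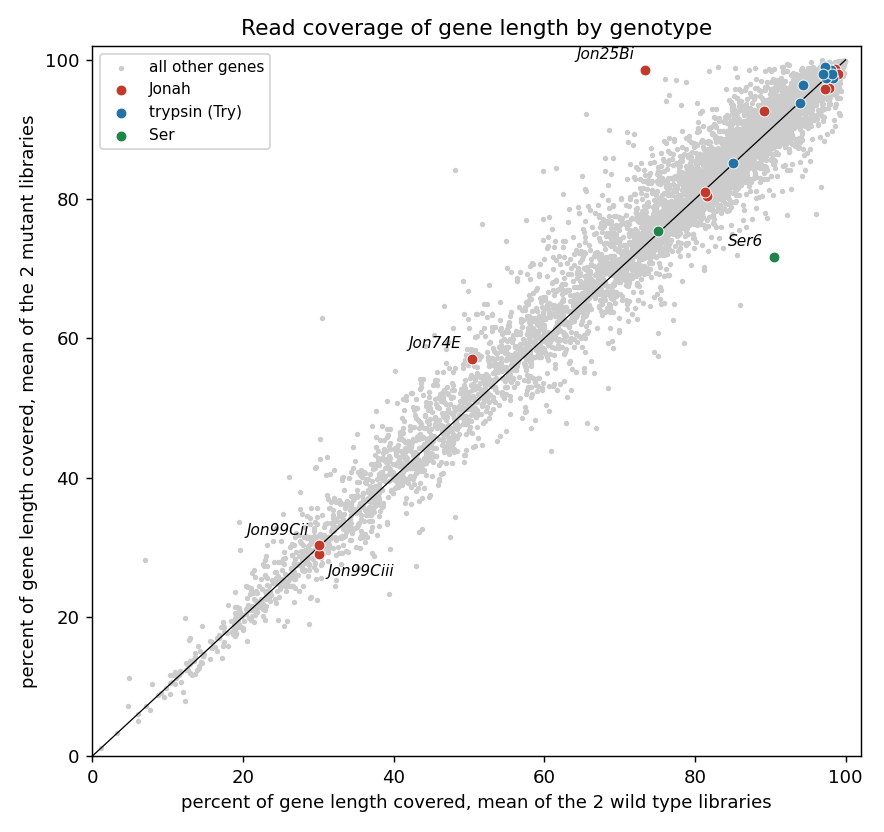
Percent of gene length covered by reads, mean of the 2 wild type libraries (horizontal) against mean of the 2 mutant libraries (vertical), for genes with at least 150 reads in every library; coloured points are members by family and the line marks equal coverage. Jon25Bi lies above the line and Ser6 below it, while Jon99Cii and Jon99Ciii lie near 30% on both axes.

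Other digestive enzymes were set beside the proteases. Over all genes 5.21% were called higher and 10.4% lower with paraquat in wild type. Of 9 aminopeptidase genes of the gut with reads, which trim peptides from their amino end, 8 were tested in wild type: 1 was higher with paraquat and 0 lower, and the summed level was 302 RPKM in control and 469 in paraquat flies. In the mutant it was 391 and 305 RPKM. More than any other gene CG31198 made up these sums, at 172, 284, 227 and 183 RPKM in library order. Of 10 carboxypeptidases with reads, which trim from the other end, CG12374 had the highest level, at 271, 616, 365 and 395 RPKM in library order. With paraquat in wild type CG12374 was the 1 called higher of 7 tested, while CG8560, at 10.7 and 4.30 RPKM, and CG4408, at 26.8 and 9.87, were called lower. Starch and sugar digesting enzymes followed another order, with summed levels of 344, 931, 1769 and 1650 RPKM, so that both mutant libraries lay above both wild type ones. With paraquat in wild type 8 of 11 tested were called higher and 0 lower (median 1.57). In the mutant 0 of 12 were called with paraquat, and 10 lay below 0 (median −0.08), against 62.6% of all genes below 0. Of 12 such genes 11 were called higher and 0 lower in mutant control flies (median 2.27), against 6.55% and 5.75% of all genes.

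Serine proteases outside digestion were measured too. Of 12 tested proteases of immune cascades and embryonic patterning, with SPE and grass of the Toll cascade and gd and ea of the dorsoventral axis among them, 1 was higher with paraquat in wild type and 2 were lower (median 0.17), and 0 were called in the mutant (median −0.06). Of 7 tested serpins, which inhibit serine proteases, 0 were called with paraquat in either genotype. Over all genes 5.21% were called higher and 10.4% lower with paraquat in wild type, and 0.712% and 0.603% in the mutant.

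Markers of the tissues that make up the library also differed between groups. Of 10 midgut epithelium markers none was at 0, and their summed level was 77.8, 91.2, 55.7 and 58.9 RPKM in library order. With paraquat in wild type 1 of 8 tested was called higher, against 5.21% of all genes. This was mex1, a gene transcribed in the midgut, at 8.20 and 20.1 RPKM in wild type and at 8.37 and 13.3 in the mutant. The brush border myosin gene Myo61F was at 12.1, 21.0, 15.8 and 14.3 RPKM and the midgut regulator GATAe at 1.46, 2.41, 2.19 and 1.89, in both cases highest in wild type paraquat flies. Other markers of the list were lower there than in wild type control: cad was at 21.3 and 11.9 RPKM, Myo31DF at 7.96 and 7.30, and Mur29B at 20.3 and 19.5. Of the 8 tested, 5 lay above 0 and 3 below. Between genotypes in control the median difference of the list was −0.05, with 4 tested genes above 0 and 4 below. In mutant control and mutant paraquat flies Mur29B was at 4.41 and 4.41 RPKM and cad at 12.8 and 12.7. Like the summed female germline markers below, cad was highest in wild type control flies. The part of other tissues in the levels of these midgut markers was not tested. Among 10 enteroendocrine genes, most of them also transcribed in neurons, the summed level was 20.6, 52.4, 39.9 and 44.4 RPKM. The peptide hormone gene CCHa2 held most of the difference in this sum, at 8.90, 33.3, 27.9 and 30.7 RPKM, and the median difference of the list between genotypes in control was 0.02. With paraquat in wild type all 8 tested genes of this list lay above 0 (median 0.52), against 36.8% of all genes. Muscle markers summed to 2320, 7373, 5727 and 5215 RPKM, and female germline markers, among them osk at 349, 244, 285 and 326, to 554, 340, 399 and 436. Each list had 9 genes with reads and none at 0 in any library. The wild type control was thus lowest for muscle and highest for the germline, and its part in the protease differences was not tested. Set against mutant control flies instead, wild type paraquat flies had 3 members higher and 4 lower (3.22% and 3.12% of all genes), with a median of −0.04.

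Of 3922 other genes at 10 RPKM or more in every library, those whose profile over the 4 libraries came nearest to the summed proteases were Obp57c, CG6409, Vha16-1, 7B2 and FBgn0015324, with a mean gap of 0.03 to 0.06 on the log2 scale. Vha16-1, a subunit of the proton pump of acidic compartments, was at 310, 456, 371 and 331 RPKM in library order. With 4 points such likeness is a description of these libraries.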

How the data were processed

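Whole adult females of 4 groups were profiled by poly-A RNA sequencing, 1 library a group, with an Illumina TruSeq kit, as the labels' protocols state. Cufflinks and the build dm3 appear in the submitters' processing notes. Neither aligner, annotation release nor use of strand is given in these sources. The deposited tables give, per the file headers, a whole-number count of uniquely mapped reads per gene, a length, the percent of that length covered, and RPKM. The deposited counts sum to the total in each header, and the deposited RPKM equals reads divided by length and total with a largest relative gap of 5.13e-07. IDs without a row (834, 665, 766 and 787 of 12073) were taken as 0 reads. Symbols matched 11667 IDs. Positions are from BDGP6, a later build, and the files carry no coordinates.

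Differences are of log2(RPKM + 1) with the size rule stated in the report. Fold intervals are exact Clopper-Pearson intervals of counts at 95%. The code of the rule was checked on simulated counts with planted changes well past the rule. These counts held counting error only, so variation between flies or libraries was not tested. Values were given for the 10 highest members, every member called in any comparison and the highest of each family. Others were named to show a neighbour or a coverage value. The family to describe and the gene lists were chosen with earlier results of these data known. Within the family every member was taken by symbol alone. Sequence features were planned but not used here, as no sequence table was at hand. List genes were matched by current symbol alone, 158 of 162. Alternatives tried included a pseudocount of 0.1 or 5, a minimum of 5 RPKM or none, 2 other scalings and values not divided by length. Other baselines and leaving out poorly covered members were added after seeing the data. Python 3.11.15, pandas 2.3.3, NumPy 2.4.6, SciPy 1.17.1 and matplotlib 3.10.9 were used.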

Additional observations from a re-analysis of the deposited data

Results flagged for a closer look

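Jon25Bii and Jon25Bi were past the size rule in both genotypes, in opposite directions: in wild type both were higher with paraquat, and in the mutant both were lower. The mutant response minus the wild type response was −3.78 for Jon25Bii and −3.16 for Jon25Bi on the log2(RPKM + 1) scale. With 1 library a group this difference was not tested. Jon25Bi lies 1.03 Mb and Jon25Bii 1.04 Mb from Kdm5 on chromosome 2L, and Jon25Bi is the member that was covered over more of its length in the mutant.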

How the results depend on the processing

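Members called with paraquat in wild type numbered 5 as reported, 4 higher and 1 lower, against 439 and 879 of all genes. With a pseudocount of 0.1 they numbered 8, 5 higher and 3 lower, against 755 and 1119. With upper-quartile scaling they also numbered 8, 8 higher and 0 lower, against 808 and 313. Members called with paraquat in the mutant numbered 2 as reported and 1 with upper-quartile scaling, all lower. Over all genes 50 and 43 were then called lower. In wild type the members' median for paraquat, 0.31, became 0.49 with median-ratio and 0.60 with upper-quartile scaling, and turned to −0.039 with mutant control flies as the baseline. The median between genotypes in control, 0.39, became 0.25 with a pseudocount of 5, 0.52 with upper-quartile scaling and 0.039 when wild type flies on paraquat were the baseline. The median difference of responses, −0.60, became −0.47 with a pseudocount of 5, −0.73 with median-ratio and −0.82 with upper-quartile scaling. Without the mitochondrial large ribosomal RNA in the total, the share of reads was 0.446%, 0.641%, 0.528% and 0.448% in library order, and with median-ratio size factors 0.378%, 0.599%, 0.476% and 0.403%. In both, wild type paraquat was the highest, but mutant paraquat was no longer the lowest. Leaving out members covered below 50% moved no count by over 1.5 times. Over all genes, with paraquat in wild type 33.3% of called genes were higher as reported, 58.5% with median-ratio and 72.1% with upper-quartile scaling, as the median of all genes went from −0.29 to −0.13 and −0.03. Between genotypes in control this share was 53.3%, 65% and 68.4%. Of the values of single named members under the alternatives, 538 kept their side of the rule, 14 passed it newly and 14 fell short. Among the 538 are 84 values with no minimum and 73 with a minimum of 5 RPKM. These could not move, as a minimum leaves the difference of a tested gene unchanged. Members with few reads, Jon66Cii, Jon66Ci and deltaTry, are limited by depth. No paired analysis was possible because each group has 1 library.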

Other observations

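Other gene groups of the gut and of neighbouring tissues were measured in the same libraries. Over all genes 5.21% were called higher and 10.4% lower with paraquat in wild type, and 0.712% and 0.603% in the mutant. Between genotypes these shares were 6.55% and 5.75% in control, and 2.30% and 2.70% under paraquat. Of 6 tested genes of the peritrophic matrix, the chitin and protein sheet between food and midgut cells, 3 were called higher and 1 lower with paraquat in wild type (median 0.61), and of 5 tested in the mutant 0 were called (median −0.33). Of 3 tested digestive lipases 3 were called higher in mutant control flies than in wild type (median 1.14), and none with paraquat in either genotype. Of 13 tested genes of gut transcription and nutrient signalling 0 were called in any of the 4 comparisons, with medians between −0.15 and 0.04. Of 10 fat body markers, from the tissue that stores fat and secretes blood proteins, 5 were called higher and 2 lower with paraquat in wild type (median 1.03), and 0 higher and 2 lower in the mutant (median −0.66). Between genotypes in control 6 fat body markers were called higher and 0 lower (median 2.02).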
